A study of Rattus norvegicus with 2 samples.

Results

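Cdh1, Vim and Fn1 are genes widely read as markers of epithelium and stroma, and each was represented by 1 probe on an expression array of 20174 gene probes. The 3 probes were taken by their rat Ensembl gene IDs, ENSRNOG00000020151 (Cdh1), ENSRNOG00000018087 (Vim) and ENSRNOG00000014288 (Fn1), by a rule that uses no measured value, and all 3 were present on both arrays. Cdh1 encodes E-cadherin, the calcium-dependent adhesion protein of epithelial cell junctions. Vim encodes vimentin, the intermediate filament protein of fibroblasts and other mesenchymal cells. Fn1 encodes fibronectin, a glycoprotein of plasma and of the extracellular matrix that cells bind through integrins. In an epithelial-to-mesenchymal transition, a change of cell state studied in carcinomas, E-cadherin is typically lost while vimentin and fibronectin are gained. In a gland such as the prostate, E-cadherin belongs to the secretory and basal epithelium, and vimentin and fibronectin are made largely by the stroma around it.

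The RNA came from prostate cancer tissue of male TRAP rats, a transgenic line in which a probasin promoter drives the SV40 T antigen in prostate epithelium, so that tumours arise in every group, controls included. Rats were given OBP-801, an inhibitor of histone deacetylases, or saline by intravenous injection, 2 times a week for 8 weeks from 6 weeks of age, and all were kept on a control diet. The dose was stated as 1 mg/kg in the treatment protocol and as 1 mg elsewhere in the labels. On the ventral array, OBP-801 RNA of ventral prostate was labelled with Cy3 and saline RNA of ventral prostate with Cy5. On the lateral array, OBP-801 RNA of lateral prostate was labelled with Cy3 and saline RNA of lateral prostate with Cy5. The number of rats behind each RNA, and whether RNA was pooled, is not given in those labels. No group was replicated, each lobe having 1 array, so no value below carries a test or an error across animals. Treatment cannot be told apart from dye, nor lobe from array. The tissue could not be checked against other prostate or stromal markers, since no other probe ID was paired with a gene symbol in the sources used here. In whole tissue, fewer cells of a type and less RNA per cell cannot be told apart.

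Detection of a spot meant an intensity more than 2 SD above the average of the 5808 blanks. In OBP-801 RNA this limit stood at 62.9 (ventral array) and 69.7 scanner units (lateral array), in saline RNA at 17.3 and 16.6 units. It was passed by 75.7% to 81.2% of gene probes in OBP-801 RNA and by 73.5% to 81.7% in saline RNA. The only measure of error was technical. Each of 2 positive controls was spotted 24 times. Between these spots the normalized log2 ratio of OBP-801 over saline varied with an SD of 0.07 (control 1) and 0.12 (control 2) in the ventral hybridisation and of 0.06 and 0.08 in the lateral one. The ventral means were 0.03 and -0.20 and the lateral means 0.16 and -0.33, so that ratios of this size also occurred among controls.

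The 3 genes were detected in all 4 RNAs, none of their spots lay at the detector ceiling, and none was flagged by the scanner. Under the reported processing none of them was 1.5-fold apart from saline with OBP-801 in either lobe. The widest ratio was that of Vim, 1.21-fold in the ventral prostate. With median centring all ratios but that of lateral Fn1 passed 1.5-fold, and with no normalization all did. The ventral Vim ratio also passed it with the local background subtracted. Between the lobes the picture was different. Vim and Fn1 had ventral signals 1.83-fold to 1.92-fold above the lateral ones, in OBP-801 and in saline RNA alike, whereas Cdh1 was 1.16-fold and 1.05-fold higher there. Both RNAs of a lobe were read from the same spot, so they are not separate observations of a lobe difference. The lobe difference of Fn1 kept its direction under every processing tried, and that of Vim was turned by subtraction of the local background.

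The E-cadherin gene Cdh1 gave an intensity of 14799 units in OBP-801 RNA and 6347 units in saline RNA of the ventral prostate. In the lateral prostate the intensities were 12467 units in OBP-801 RNA and 6061 units in saline RNA. The Cy3 channel was the brighter for all 3 probes on both arrays, and no treatment effect can be read from intensities of different dyes before normalization. After loess normalization the log2 ratio of Cdh1 was 0.08 in the ventral prostate (1.06-fold higher with OBP-801) and -0.06 in the lateral prostate (1.04-fold lower). Each ratio was smaller than the SD of the more variable positive control on its array, 0.12 and 0.08. Of the 17153 ventral probes tested, 56.8% had a ratio at least as far from 0, and of 15726 lateral probes 70.3%. The ventral ratio exceeded the lateral one by 0.14, against an SD of this difference of 0.10 between replicate control spots.

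The vimentin gene Vim had 1524 units in OBP-801 RNA and 583 units in saline RNA of the ventral prostate. In the lateral prostate it had 725 units in OBP-801 RNA and 292 units in saline RNA. The normalized log2 ratio was 0.27 in the ventral prostate (1.21-fold higher with OBP-801) and 0.24 in the lateral prostate (1.18-fold higher). Vim was thus the member with the highest ratio in both lobes, at 2.28 and 3.21 times the control SD. With the local background subtracted the lateral ratio of Fn1, 0.17 by normexp and 0.25 by plain subtraction, was the higher, against 0.11 and 0.095 for Vim. The Vim ratios were still inside the range of ordinary probes, since 20.3% of the ventral and 25.3% of the lateral probes lay at least as far from 0. On the lateral array the mean of positive control 2, -0.33, lay further from 0 than the Vim ratio, and that of control 1, 0.16, did not. The ventral control means, 0.03 and -0.20, were both nearer to 0 than the ventral Vim ratio. The ratios of the lobes differed by 0.03, less than the spot-to-spot SD of 0.10. With the local background subtracted, however, the ventral Vim ratio was 0.95 (normexp) and 1.30 (plain subtraction), and it exceeded the lateral one by 0.83 and 1.21.

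The fibronectin gene Fn1 had 768 units in OBP-801 RNA and 339 units in saline RNA of the ventral prostate, against 352 units in OBP-801 RNA and 164 units in saline RNA of the lateral prostate. Its log2 ratio was 0.07 in the ventral prostate (1.05-fold higher with OBP-801) and -0.0045 in the lateral prostate. Among the lateral probes, 97.5% had a ratio further from 0 or equally far. Both ratios of Fn1 were within the control SD.

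None of the 3 genes was at least 2-fold higher or lower with OBP-801 under the reported processing. Over all tested probes that threshold was passed by 0.536% in the ventral prostate and 0.75% in the lateral prostate, so that 0 of 3 is no different from what most probes showed. At 1.5-fold the shares were 4.13% and 4.45%, and again none of the 3 passed in either lobe. A loss of Cdh1 together with a gain of Vim and Fn1, or the opposite pattern, was not seen at this threshold in either lobe.

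**Figure D1:**
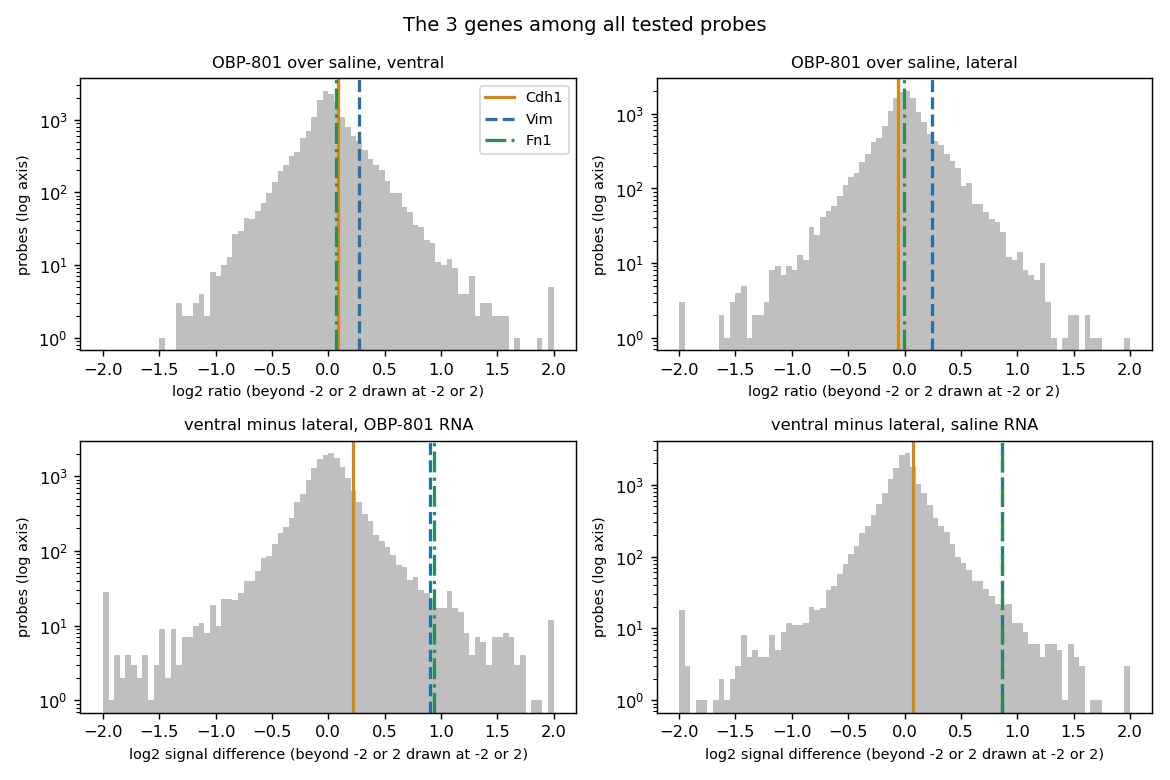
Histograms of the normalized log2 ratio of OBP-801 over saline (top, ventral and lateral prostate) and of the log2 signal difference of ventral minus lateral prostate (bottom, OBP-801 and saline RNA) over all tested probes, with the number of probes on a log axis and a vertical line for each gene. The ratios of the 3 genes stand between -0.06 and 0.27, in the body of the distribution, and the lobe differences of Vim and Fn1, from 0.87 to 0.94, stand in its upper tail.

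The authors' deposited log2 table gave nearly the same ratios for the members. In the authors' deposited table Vim stood at 0.29 (ventral) and 0.24 (lateral), Cdh1 at 0.14 and 0.03, and Fn1 at 0.05 and -0.06. The sign of the small lateral Cdh1 ratio was therefore opposite in that table. Vim was above 0 in both lobes under all 8 alternatives, from 0.26 to 1.30 (ventral) and from 0.095 to 1.12 (lateral). The upper ends came from plain subtraction of the local background (ventral) and from leaving out normalization (lateral). With no normalization the median over all tested probes was itself 0.55 (ventral) and 0.53 (lateral). With median centring it was 0.11 and 0.15. A ratio above 0 under these settings was thus shared by most probes.

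With normexp and its offset kept but loess left out, the ratios of all 3 genes were higher. Under median centring they became 0.77 and 0.65 for Cdh1, 0.86 and 0.74 for Vim and 0.59 and 0.39 for Fn1 (ventral and lateral), while the median over all tested probes was 0.11 and 0.15. With no normalization at all they ranged from 0.77 to 1.30, against medians of 0.55 and 0.53 over all probes, and all but the lateral Fn1 ratio then passed 2-fold. The ventral Vim ratio also passed 2-fold, at 1.30, with plain subtraction of the local background. The authors' deposited table, which also lacks loess but has no offset, did not show this shift. The size of the ratios, and for Cdh1 and Fn1 their direction in the lateral prostate, thus depended on the processing. Lateral Fn1 was also above 0 with loess kept and the local background used, at 0.17 (normexp) and 0.25 (plain subtraction). Plain subtraction also leaves out normexp and its offset.

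**Figure D2:**
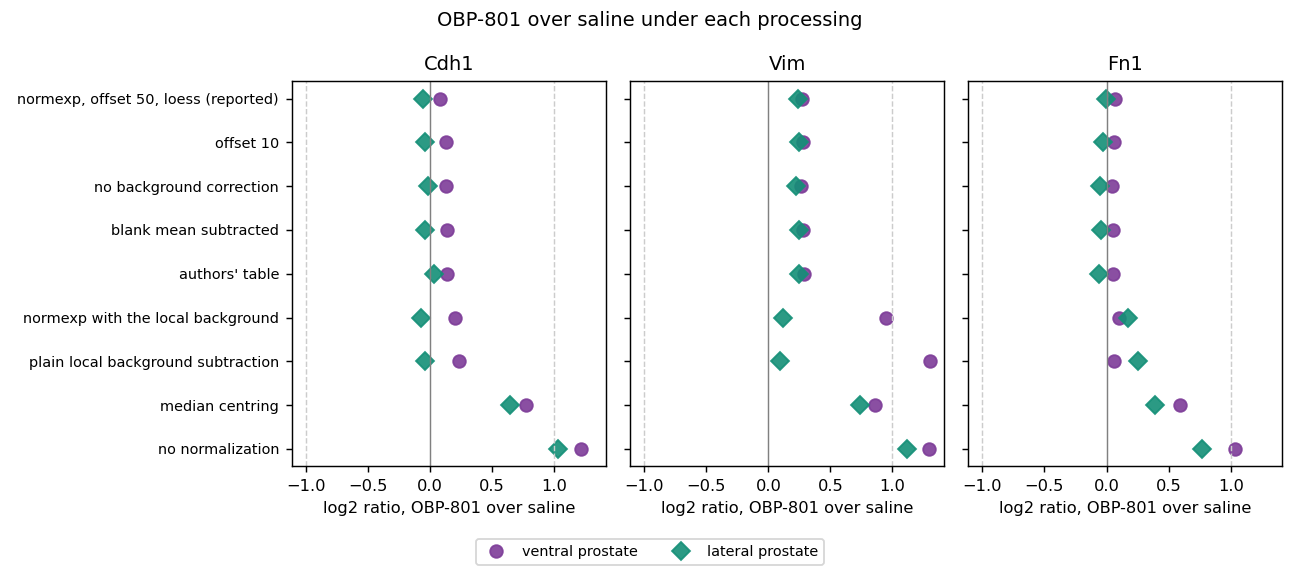
Log2 ratio of OBP-801 over saline of each gene in ventral (circles) and lateral (diamonds) prostate, 1 array each, under the reported processing and each of 8 alternatives. The solid line marks no difference and the dashed lines 2-fold. Vim lies above 0 throughout, Cdh1 and Fn1 lie between -0.07 and 0.25 except under median centring and no normalization, and the ventral Vim ratio reaches 0.95 and 1.30 where the local background was used.

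The second comparison set the lobes against each other, within OBP-801 RNA and within saline RNA. Levels of the same dye on the 2 arrays were compared after loess and Aquantile normalization, which gives both arrays the same distribution of mean log2 signals. In OBP-801 RNA Vim had a normalized log2 signal of 10.01 in the ventral and 9.11 in the lateral lobe, a difference of 0.90 (1.87-fold higher in ventral). In saline RNA its log2 signal was 9.74 in ventral and 8.87 in lateral prostate, a difference of 0.87 (1.83-fold). Over all 4 RNAs the order of the Vim levels was ventral OBP-801, ventral saline, lateral OBP-801 and lateral saline. The step between the lobes was wider than either step between treatments.

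Fn1 showed a lobe difference of nearly the same size. With OBP-801 its log2 signal was 9.05 (ventral) and 8.11 (lateral), a difference of 0.94 (1.92-fold higher in ventral). In saline RNA the log2 signals were 8.98 and 8.11, a difference of 0.87 (1.83-fold). The lateral levels of OBP-801 and saline RNA could not be ordered, being within 0.0045 of each other, and the ventral ones were within the control SD.

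Cdh1 had log2 signals of 13.30 (ventral) and 13.09 (lateral) with OBP-801, a difference of 0.22 (1.16-fold). In saline RNA they were 13.22 and 13.15, a difference of 0.07 (1.05-fold). The saline difference was below the spot-to-spot SD of 0.14, and the OBP-801 difference was 2.34 times the corresponding SD of 0.09. That SD does not cover shifts between the arrays. The OBP-801 means of positive controls 1 and 2 differed between them by -0.62 and 0.25 after loess alone. Both lay further from 0 than the Cdh1 difference. Cdh1 thus differed less between the lobes than Vim and Fn1 did. Neighbouring levels among its 4 could not be ordered, since each step was at most 0.08 and within the SD of the more variable control. The highest and the lowest level were those of ventral and lateral OBP-801 RNA, 0.22 apart. Under subtraction of the blank mean the OBP-801 difference was 0.32, the same as the median over all probes with that setting.

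Against all tested probes the lobe differences of Vim and Fn1 were wide. In saline RNA, 1.44% of 16613 probes differed between the lobes at least as much as Vim and 1.45% at least as much as Fn1, against 56.6% for Cdh1. In OBP-801 RNA the shares of 16814 probes were 2.17% for Vim, 1.96% for Fn1 and 27.0% for Cdh1. A signal at least 1.5-fold higher in ventral than in lateral prostate was found for 2.89% of probes in OBP-801 RNA and for 1.94% in saline RNA, and in both for 1.69% of 16013 probes. Vim and Fn1, 2 of the 3 members, were among these 1.69%. None of the 3 reached 2-fold, which 1.74% of probes did in OBP-801 RNA and 0.987% in saline RNA, counting both directions. With the blank mean subtracted in place of the offset, Vim (1.14 in OBP-801 and 1.11 in saline RNA) and Fn1 (1.32 and 1.22) passed 2-fold, while the median over all probes was itself at 0.32.

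**Figure D3:**
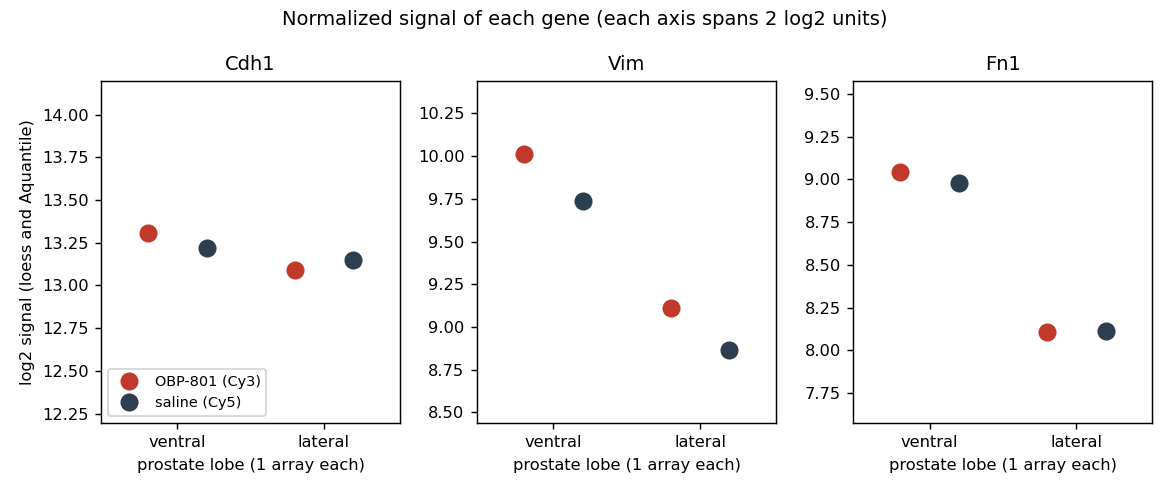
Normalized log2 signal of each gene in OBP-801 RNA (Cy3) and saline RNA (Cy5) of ventral and lateral prostate, 1 array per lobe and so without error bars. Each vertical axis spans 2 log2 units around the gene's own values, and levels of different probes are not comparable. Vim and Fn1 sit 0.87 to 0.94 higher in ventral than in lateral prostate, and Cdh1 0.07 to 0.22 higher.

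The unnormalized spots gave the same order. The ventral spot was 2.10-fold (OBP-801) and 2.00-fold (saline) as bright as the lateral one for Vim, 2.18-fold and 2.06-fold for Fn1, and 1.19-fold and 1.05-fold for Cdh1. The precision of such differences was limited by what the control spots did between the arrays. The SD over 24 spots was at most 0.09 in OBP-801 and 0.14 in saline RNA. However, the mean of positive control 1, after loess alone, differed by -0.62 (OBP-801) and -0.49 (saline) between the ventral and the lateral array on the log2 scale, and that of positive control 2 by 0.25 and 0.11. The labels and file headers do not say what these controls contain. Array differences of that size thus occurred for spots that carry the same label on both arrays, and their part in the Vim and Fn1 differences was not tested.

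The local background around a spot set Vim apart from Fn1. On the ventral array the surroundings of the Vim spot read 1176 units in OBP-801 and 510.4 units in saline RNA, or 77.1% and 87.5% of the spot's own intensity. The lateral surroundings read 368 units in OBP-801 and 105 units in saline RNA, or 50.8% and 36.0% of the spot. Among the 12724 ventral probes more than 10 blank SDs above the blanks in saline RNA, the median share was 56.9%, and 87.2% of them had a lower share than Vim. In ventral OBP-801 RNA the median share was 63.6%, and 78.0% of 11980 such probes had a lower share than Vim. On the lateral array the share of Vim was above that of 19.7% of 11434 such probes in saline RNA. In lateral OBP-801 RNA it was above that of 17.0% of 10995. Less its local background, the Vim spot of OBP-801 RNA had 348 units (ventral) and 357 units (lateral), and that of saline RNA 72.9 units (ventral) and 187 units (lateral). Subtraction therefore turned the direction of the Vim lobe difference, to -0.19 in OBP-801 and -1.02 in saline RNA with normexp, and to -0.27 and -1.48 with plain subtraction.

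For Fn1 the ventral local background was 490.5 units in OBP-801 and 199.7 units in saline RNA, or 63.8% and 58.9% of the spot. The lateral local background was 244 and 116 units, or 69.1% and 70.4% of the spot. Less the local background, the ventral spot of Fn1 was 2.56-fold (OBP-801) and 2.86-fold (saline) the lateral one. The normalized difference stayed above 0 under all 7 alternatives, from 0.77 to 1.32 in OBP-801 RNA and from 0.84 to 1.38 in saline RNA. The shares for Cdh1 were 58.1% and 53.5% (ventral) and 55.6% and 48.3% (lateral), and with subtraction by normexp its lobe difference was 0.0077 in OBP-801 and -0.26 in saline RNA.

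**Figure D4:**
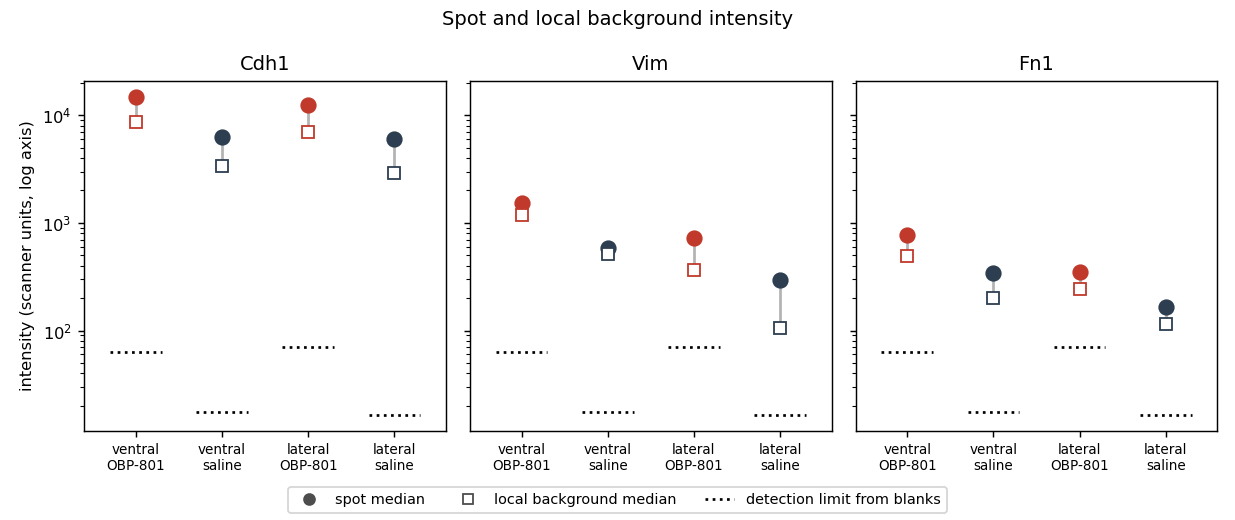
Intensity of the spot (circles) and of its local background (squares) for each gene in OBP-801 and saline RNA of each lobe, in scanner units on a log axis, with the detection limit from blank spots (dotted). All spots lie above the limit, and the local background of Vim is close to its spot on the ventral array (77.1% and 87.5% of it) and further below it in the lateral hybridisation (50.8% and 36.0%).

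The intensities of the spots next to a member were also examined. The Vim spot had 8 neighbours, of which 4 were blanks. In the ventral hybridisation those blanks read 58.3 to 69.0 units in OBP-801 and 15.1 to 19.0 units in saline RNA, against means over all blanks of 58.1 and 15.7 units. In the lateral hybridisation they read 60.3 to 67.5 and 13.3 to 15.9 units, against means of 64.0 and 14.2 units. The highest ventral readings, 69.0 and 19.0 units, passed the detection limits of 62.9 and 17.3 units. The lateral ones stayed below their limits of 69.7 and 16.6 units. All were far below the ventral local background of Vim, 1176 and 510.4 units. These are spot intensities, and the local background of the adjoining blanks was not examined. The 4 neighbouring gene probes had a median log2 difference of ventral minus lateral of 0.17 in OBP-801 and 0.08 in saline RNA before normalization, and the highest of them reached 1.09 and 1.12. Around Fn1 the 8 neighbours were gene probes, with medians of -0.06 and 0.25 and a highest difference of 0.70 and 0.55.

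**Figure D5:**
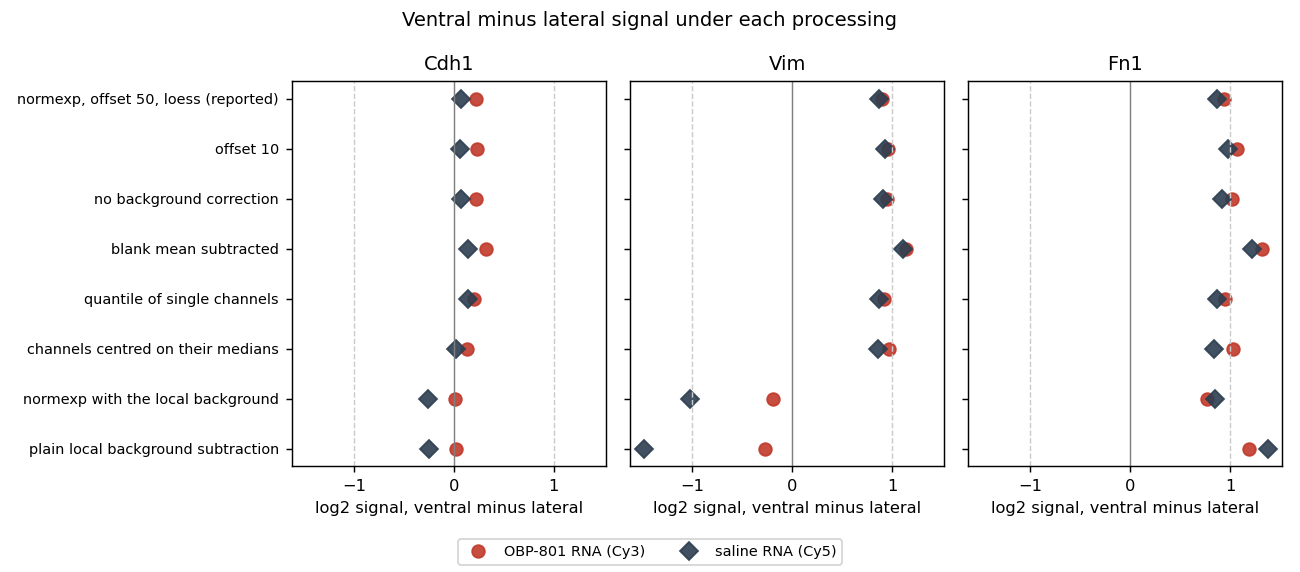
Log2 signal difference of ventral minus lateral prostate for each gene in OBP-801 RNA (circles) and saline RNA (diamonds) under the reported processing and each of 7 alternatives. The solid line marks no difference and the dashed lines 2-fold. Fn1 stays at 0.77 or higher, Cdh1 stays between -0.26 and 0.32, and Vim lies at 0.86 or higher except where the local background was used.

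The likeness of other probes to each member was measured over the 4 RNAs as the Euclidean distance between normalized log2 signals, each probe centred on its own mean, among 14215 other probes detected in all 4. The arrays, dyes and normalization are shared by all probes, so the distances are a description. Within a distance of 0.2 lay 4096 probes (28.8%) for Cdh1, 13 (0.0915%) for Vim and 33 (0.232%) for Fn1. Within 0.1 the numbers were 643, 1 and 6. These neighbours are not named because their IDs were paired with no symbol. The distance between Vim and Fn1, looked at after their values were seen, was 0.23, and 0.162% of the probes were nearer to Vim than Fn1 was. Cdh1 lay at a distance of 0.78 from Vim and 0.76 from Fn1. All distances were taken under the reported processing only. With normexp on the local background the lobe differences of Vim were -0.19 (OBP-801) and -1.02 (saline). Those of Fn1 were 0.77 and 0.84.

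Of the 3 members, Vim was matched by symbol to a promoter sequence in the RefSeq table. It is shown because Vim was the only member so matched, and the measured ratios played no part. The 250 bases upstream of the Vim start lie at chr17:81577011-81577260 on the plus strand of build GRCr8, which is not tied to the array, for whose probes no build is given in the sources used here. Capitals mark matches to 3 promoter motifs, searched on both strands and not overlapping each other here.
Vim: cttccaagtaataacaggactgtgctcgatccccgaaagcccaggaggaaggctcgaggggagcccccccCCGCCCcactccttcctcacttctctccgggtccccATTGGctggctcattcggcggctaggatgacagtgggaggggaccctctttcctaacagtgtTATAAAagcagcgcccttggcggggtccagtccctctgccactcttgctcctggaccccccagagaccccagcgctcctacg
From the 5′ end these are a GC box (GGGCGG, read on the opposite strand) that begins 180 bases before the start, a CCAAT box (CCAAT, on the opposite strand) at 144 bases and a TATA box (TATAAA) at 82 bases. Among 33469 rat promoters of the same length, 30.5% held the GC box, 34.0% the CCAAT box and 12.9% the TATA box letters on either strand. A match is a description of the letters, and the arrays measured no binding there.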

How the data were processed

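Amino allyl RNA was made from total RNA, the Cy dyes were attached after a Toray procedure, and 1 dual-dye array was run per lobe, per the labels. Spot and local background intensity are deposited as medians, reconciled over 3 scanner gains and neither background-subtracted nor normalized, per the file headers. The deposited log2 table was made in a way no header states. Recomputed from the scanner files, its values were the log2 Cy3/Cy5 ratio of blank-subtracted spots minus 1.08 (ventral) or 1.00 (lateral), to within an SD of 1.7e-05 and 2.1e-05. It is thus a median-centred OBP-801/saline ratio.

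Spot medians were corrected with normexp (offset 50, no local background) and normalized by loess within each array, control spots at weight 0, in limma 3.58.1 (R 4.3.3). Channels were set across arrays by Aquantile. Offset and loess both shrink or bend ratios of dim probes. Blank means and SDs left out 5% of blanks at each end. Probes detected in at least 1 of the channels compared were counted. The calculation of the ratios was tested on simulated data with known folds and a constant dye factor. The lobe differences and the use of the local background were not tested in this way. Tables were made with Python 3.11.15, numpy 2.4.6 and pandas 2.3.3. The number of arrays limits the precision.

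The rule that picks Cdh1, Vim and Fn1 uses gene IDs and no measured value, but it and the lists were set with earlier results of these data known. Their symbols come from the definition of the gene set. The planned lists of epithelial, mesenchymal, smooth muscle, endothelial, leukocyte and other marker genes were not evaluated, since neither the files nor the RefSeq table pair Ensembl IDs with symbols. For the same reason the most similar probes were counted and not named, as the naming rule provides. Alternatives were other background corrections, an offset of 10, median centring, no normalization, other scaling between arrays, other filters and folds, and the authors' table. Plain subtraction of the local background was added after seeing the data.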

Additional observations from a re-analysis of the deposited data

Results flagged for a closer look

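The ratios of OBP-801 over saline had opposite signs in the lobes for Cdh1, with log2 values of 0.08 (ventral) and -0.06 (lateral), and for Fn1, with 0.07 (ventral) and -0.0045 (lateral). With 1 array per lobe the difference was not tested, and each of these ratios was within the SD of the more variable positive control on its array.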

How the results depend on the processing

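No paired analysis was possible because no group was replicated. A value was taken to have moved where it shifted by at least the SD of the more variable positive control. Of 114 member values under an alternative, 68 did not move by that measure and 46 did. Of 36 counts, 17 stayed within 1.5 times and 19 did not. Values are log2, and pairs are ventral and lateral ratios, or lobe differences in OBP-801 and saline RNA. The lists of cell type markers were not run under any alternative.
Median centring gave ratios of 0.77 and 0.65 (Cdh1), 0.86 and 0.74 (Vim) and 0.59 and 0.39 (Fn1), and a ventral minus lateral ratio of 0.20 for Fn1. No normalization gave 1.21 and 1.03, 1.30 and 1.12, and 1.03 and 0.77, with ratio differences of 0.18 (Vim) and 0.26 (Fn1). The cause of these shifts was not tested, and the authors' deposited table, without loess or offset, did not show them. It had 0.031 for lateral Cdh1. With normexp on the local background, ratios were 0.95 and 0.11 (Vim) and 0.17 (lateral Fn1), ratio differences 0.27 (Cdh1), 0.83 (Vim) and -0.077 (Fn1), and lobe differences 0.0077 and -0.26 (Cdh1), -0.19 and -1.02 (Vim) and 0.77 (Fn1, OBP-801). Plain subtraction of the local background gave ratios of 0.24 (ventral Cdh1), 1.30 and 0.095 (Vim) and 0.25 (lateral Fn1), ratio differences of 0.27, 1.21 and -0.19, and lobe differences of 0.023 and -0.25 (Cdh1), -0.27 and -1.48 (Vim) and 1.19 and 1.38 (Fn1). Why the local background of Vim differed between the arrays was not tested. Subtraction of the blank mean gave lobe differences of 0.32 (Cdh1, OBP-801), 1.14 and 1.11 (Vim) and 1.32 and 1.22 (Fn1), while the median of all probes moved to 0.32 in both RNAs. The Cdh1 value in OBP-801 RNA is the same as that median to 2 decimals. An offset of 10 gave 1.06 for Fn1 in OBP-801 RNA.

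Probes at least 2-fold apart (92 ventral, 118 lateral, 293 between lobes in OBP-801 and 164 in saline RNA) numbered 1643, 1432, 2823 and 2374 once the blank mean was subtracted. An offset of 10 gave 210, 255, 555 and 339. At 1.5-fold they were 708, 700, 881 and 591. With normexp on the local background 475 ventral, 312 lateral and 882 saline probes passed, with median centring 601 ventral and 533 lateral, and with no normalization 3443 and 2624. The balance of higher and lower moved too. In ventral prostate, 67 higher and 25 lower became 962 and 681 (blank mean), 456 and 19 (local background), 599 and 2 (median centring) and 3443 and 0 (none). In lateral prostate, 59 and 59 became 276 and 36, 526 and 7, and 2621 and 3 under the last 3 of these. Between lobes, 156 and 137 in OBP-801 RNA became 2452 and 371 (blank mean) and 248 and 118 (none), and 73 and 91 in saline RNA became 2111 and 263 (blank mean).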
